A study of Homo sapiens with 18 samples.

Results

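The differences that 2 erlotinib-resistant sublines of HCC827 share against their parent were measured as the mean of the 4 ER3 and T15-2 groups minus the mean of the 2 HCC827 groups, with drug and DMSO weighted equally. A gene was a member when this shared difference passed the test (limma, Benjamini-Hochberg adjusted p below 0.05) and when ER3 and T15-2 both differed from HCC827 with the same sign in erlotinib and in DMSO, which makes 4 comparisons. Of 11820 genes tested, 3938 were members. All 18 arrays of the series entered the contrast.

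HCC827 is a human non-small cell lung cancer line with an activating deletion in EGFR, and erlotinib is an inhibitor of the EGFR kinase. ER3 and T15-2 were derived from HCC827 and resist the drug, so that the sublines are 2 related lines and not independent tumours. The groups, of 3 arrays each, were ER3 with erlotinib, ER3 with DMSO, T15-2 with erlotinib, T15-2 with DMSO, HCC827 with erlotinib and HCC827 with DMSO. All cells grew in RPMI-1640 with serum and antibiotics, were starved overnight, and then received erlotinib at 1 µM or DMSO during 12 h. Total RNA was hybridised to Illumina BeadChips. The labels do not say that the 3 samples of a group were separate cultures, so errors and p-values describe the spread between arrays, not between independently derived resistant lines. In bulk RNA, fewer cells expressing a gene and less of its RNA per cell cannot be told apart.

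EGFR signals through the RAS and MAPK cascade, whose transcriptional output includes its own feedback inhibitors, such as the DUSP phosphatases and Sprouty proteins. Lung cancers that stop responding to EGFR inhibitors are known to do so through further EGFR mutations, through other receptor kinases such as MET and AXL, or with a shift from epithelial towards mesenchymal gene expression. Interferon-stimulated genes are induced by interferon signalling, whose transcription factors, among them IRF9, bind a DNA element called the interferon-stimulated response element (ISRE).

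Between 15698 and 17869 of 48803 probes lay above background on an array (detection p below 0.05), and levels of arrays of 1 group correlated between 0.991 and 0.997 across genes. Levels are log2 intensities after background correction and quantile normalization, and a difference is subline minus HCC827 on that scale, ± the standard error of the fit (SE). The summed intensity of 9 lung epithelial markers was 22122 to 26454 in ER3 arrays and 13125 to 14675 in T15-2 arrays, against 20292 to 24102 in HCC827 arrays. Of 10 lymphocyte and leukocyte markers, 4 were measured, with PTPRC, CD3D, CD3E, CD2 and MS4A1 among those below the filter for measurable genes. Their sum was 118 to 135 in ER3 and 103 to 118 in T15-2, against 121 to 153 in HCC827. These sums lie near background: CD7 was above it on 2 of 12 subline arrays, LCK on 5, ZAP70 on 6 and CD79A on 10. Of 9 fibroblast markers, 3 were measured, while COL1A2, COL3A1, PDGFRB, FAP, THY1 and POSTN did not reach the filter. The sum of the 3 was 685 to 931 in ER3 and 98.4 to 115 in T15-2, against 94.2 to 106 in HCC827. LUM carries the ER3 value. COL1A1 was above background on 0 of 12 subline arrays and DCN on 5.

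The shared difference passed the test for 5849 genes (49.5% of those tested), and 3938 of these (33.3%) had 1 sign in all 4 comparisons. Of the members, 1878 were higher in the sublines (15.9%) and 2060 were lower (17.4%). The median size of the difference was 0.39 among higher members and 0.41 among lower ones, against 0.17 over all genes, so most members moved by less than 2-fold. At least 2-fold differences were found for 87 higher members (0.736%) and 240 lower members (2.03%), and for 46 and 137 without background correction. The other 1911 genes that passed the test had opposite signs in at least 1 of the 4 comparisons, and 639 genes had 1 sign throughout without passing. Under another scaling of the arrays, by the median of all probes, the split of members shifted to 29% higher, against 47.7% in the main analysis, and 2619 of the 3938 members were still called in the same direction. On both sides of the threshold, CAVIN4 (-0.22), RNPS1 (0.16) and UBE2E1 (0.14) lay just inside it, and USP54 (-0.20), FOXJ2 (-0.12) and GPRASP2 (-0.16) just outside.

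A stricter reading counts genes that passed the test in each of the 4 comparisons on their own. There were 451 such genes higher (3.82% of those tested) and 638 lower (5.4%) in the sublines, with median sizes of 0.64 and 0.78. Scaled by the median of all probes, 113 were higher and 589 lower. The ER3 and T15-2 comparisons within a treatment share the same HCC827 arrays, so agreement between them is not independent. In 390 members all 12 subline arrays lay above all 6 HCC827 arrays (3.3% of genes tested), and in 589 they all lay below (4.98%). Where a member had several measurable probes, all of its other probes had the same sign for 1004 of 1140 members, and for 304 of 319 under the stricter reading.

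**Figure D1:**
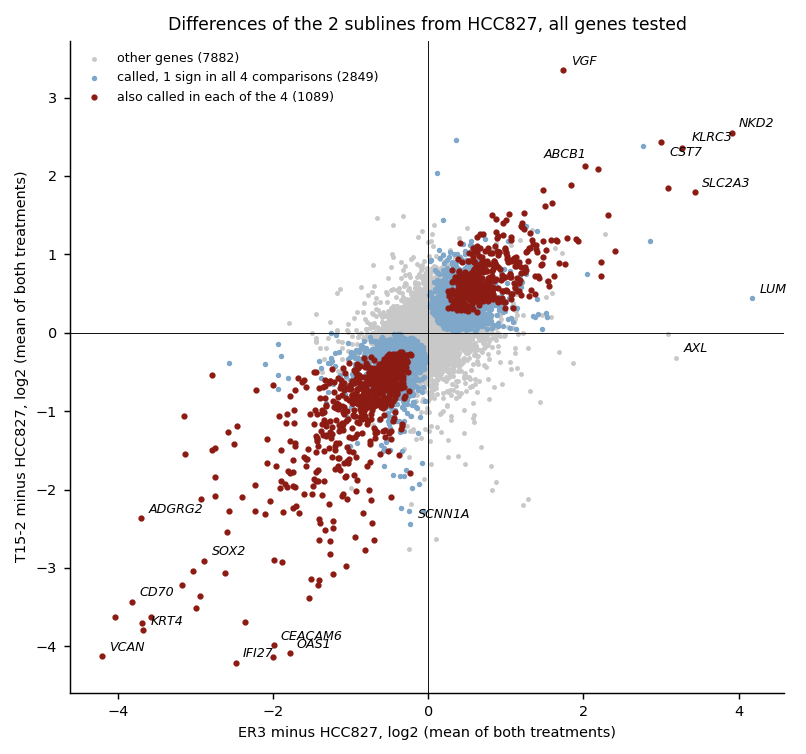
Each point is a gene, with the ER3 minus HCC827 difference on the horizontal axis and the T15-2 minus HCC827 difference on the vertical axis, both log2 and averaged over DMSO and erlotinib. Blue points are the 2849 members that did not pass in each comparison, dark red points the 1089 that did, and grey points the other 7882 genes; both axes use the same HCC827 arrays. VCAN lies at the lower left, NKD2 at the upper right, and AXL and LUM at the right edge.

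Among the largest shared rises were a protease inhibitor and receptors best known from lymphoid cells, a drug efflux pump, a glucose transporter and a Wnt pathway inhibitor. CST7, which encodes the cysteine protease inhibitor cystatin F, had levels of 8.32 to 8.92 (median 8.76) in ER3 arrays and 7.91 to 8.35 (median 8.20) in T15-2 arrays, against 5.34 to 6.06 (median 5.69) in HCC827. All 12 subline arrays were above all 6 HCC827 arrays, and the shared difference was 2.71 ± 0.07 (limma, adjusted p = 2.92e-17). KLRC3, a member of the NKG2 receptor family of natural killer cells, had levels of 8.81 to 9.26 (median 9.08) in ER3 arrays and 7.76 to 8.36 (median 8.16) in T15-2 arrays, against 5.68 to 5.94 (median 5.79) in HCC827. Its shared difference was 2.81 ± 0.06 (adjusted p = 2.96e-18). KLRC2, from the same family, was above background on all 12 subline arrays, at 6.01 to 7.03, and on none of the 6 HCC827 arrays, which makes it at least 3.3-fold higher in the sublines (adjusted p = 1.45e-12). KLRC2 and KLRC3 are near-identical in sequence, and which of them the probes measured is uncertain. CST7, KLRC2 and KLRC3 were the higher members among 10 measured lymphocyte-type genes, of which 2 were lower members, with a median of 0.04. Over all genes, 15.9% were higher and 17.4% lower members.

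ABCB1, the efflux pump P-glycoprotein, had levels of 7.72 to 8.25 (median 8.00) in ER3 arrays and 7.76 to 8.07 (median 7.85) in T15-2 arrays, against 5.40 to 6.09 (median 5.85) in HCC827. It was of similar size across sublines and treatments, with differences from HCC827 of 2.35 and 2.17 in erlotinib and 2.02 and 2.01 in DMSO for ER3 and T15-2 in that order, a shared difference of 2.14 ± 0.09 (adjusted p = 5.73e-14), and a further probe at 1.33. Its chromosomal neighbour ABCB4, a phospholipid transporter, was above background on 3 of 12 subline arrays and 0 of 6 HCC827 arrays, and no fold is given. NKD2, an inhibitor of Wnt signalling that binds Dishevelled, had levels of 10.50 to 11.07 (median 10.76) in ER3 arrays and 9.26 to 9.56 (median 9.40) in T15-2 arrays, against 6.13 to 7.62 (median 6.82) in HCC827. In HCC827 it was 6.14, 6.13 and 6.21 with erlotinib and 7.53, 7.43 and 7.62 with DMSO, so that part of its shared difference of 3.23 ± 0.05 depended on the drug (erlotinib minus DMSO difference 1.68 ± 0.10, adjusted p = 9.78e-10). VGF, the precursor of secreted neuropeptides, had levels of 7.79 to 8.15 (median 7.97) in ER3 arrays and 9.37 to 9.82 (median 9.59) in T15-2 arrays, against 5.63 to 6.79 (median 6.23) in HCC827, and it was higher in T15-2 than in ER3 by 1.60 ± 0.07 (adjusted p = 3.94e-13).

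Several further rises were of similar size in both sublines. MAGEB2, a cancer-testis antigen, had levels of 8.48 to 8.88 (median 8.66) in ER3 arrays and 8.53 to 8.94 (median 8.73) in T15-2 arrays, against 6.83 to 7.33 (median 7.08) in HCC827, with a shared difference of 1.62 ± 0.05 and 0.52 on its other probe. FAR2, a fatty acyl-CoA reductase, differed by 1.56 ± 0.07, the secreted protein DKK3 by 1.28 ± 0.07, and the transcription factor RUNX2, a regulator of bone formation, by 1.24 ± 0.07. TRAF1, an adaptor of TNF receptors, differed by 1.27 ± 0.08, TUBB2B, a beta-tubulin, by 1.38 ± 0.07, and the transcription factor CREB5 by 1.65 ± 0.07. TMEM158, a membrane protein induced by RAS, had a shared difference of 2.07 ± 0.08. In HCC827 it was 6.24, 5.73 and 6.05 with erlotinib and 8.14, 7.95 and 8.44 with DMSO. Their adjusted p-values ran from 1.11e-15 to 1.23e-10. KCNIP3, a calcium-binding protein, differed by 1.33 ± 0.08 on its brightest probe, while its other probes moved by no more than 0.24.

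**Figure D2:**
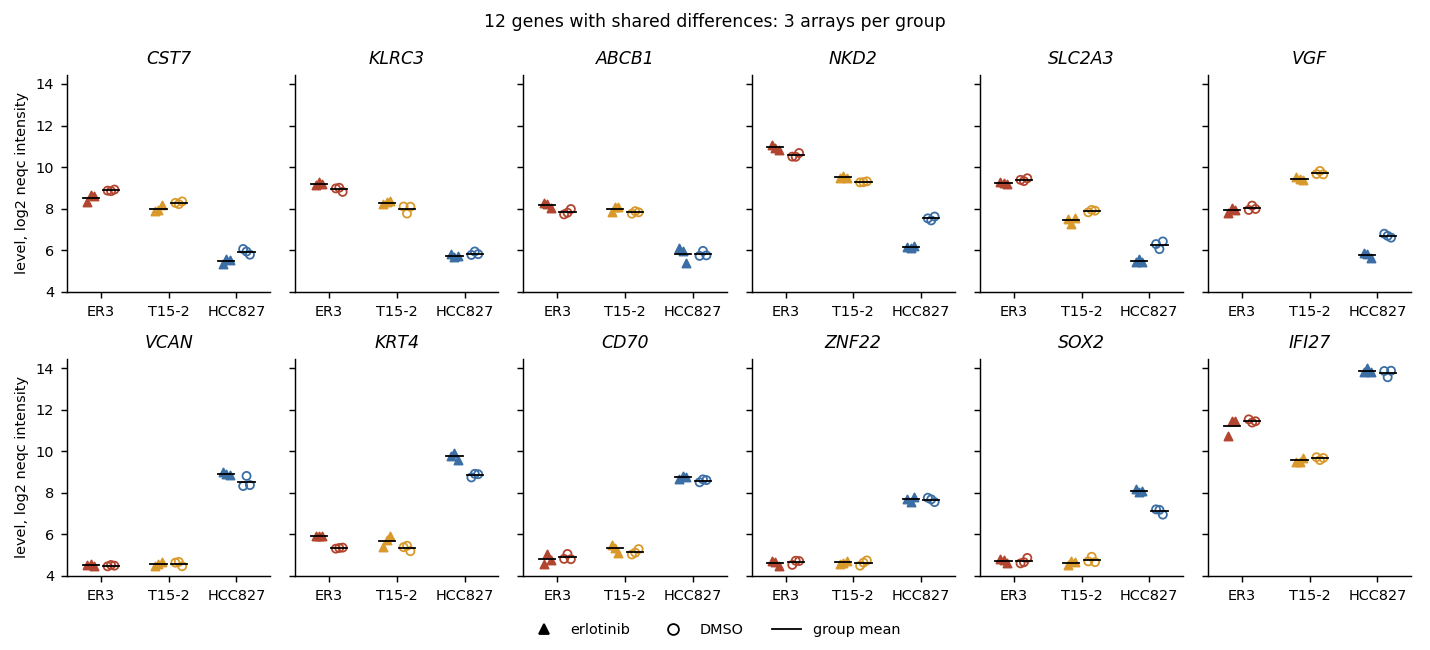
Levels (log2 intensity) of 12 genes on every array, with ER3 and T15-2 left of HCC827, triangles for erlotinib, circles for DMSO and a line at each group mean of 3 arrays. In the upper row all subline arrays lie above all HCC827 arrays, and in the lower row all lie below; VCAN and ZNF22 were above background on none of the 12 subline arrays.

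The largest shared falls included a matrix proteoglycan, a keratin, homeobox and stem cell transcription factors and immune ligands. VCAN, the proteoglycan versican, had levels of 4.45 to 4.56 (median 4.50) in ER3 arrays and 4.46 to 4.68 (median 4.61) in T15-2 arrays, against 8.32 to 9.01 (median 8.83) in HCC827. Signal above background was seen on 0 of 12 subline arrays and on all 6 HCC827 arrays, and VCAN was at least 14.3-fold lower in the sublines (adjusted p = 6.79e-20). KRT4, a keratin of mucosal epithelia, had levels of 5.31 to 5.94 (median 5.63) in ER3 arrays and 5.18 to 5.90 (median 5.43) in T15-2 arrays, against 8.73 to 9.91 (median 9.25) in HCC827, a shared difference of -3.73 ± 0.07 (adjusted p = 5.11e-19). CD70, the ligand of the TNF receptor CD27, had levels of 4.59 to 5.05 (median 4.81) in ER3 arrays and 5.03 to 5.49 (median 5.20) in T15-2 arrays, against 8.50 to 8.78 (median 8.66) in HCC827, a difference of -3.63 ± 0.07 (adjusted p = 1.26e-18), and was above background on 2 of 6 ER3 arrays and 6 of 6 T15-2 arrays.

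The homeobox gene IRX3 had levels of 6.24 to 6.77 (median 6.49) in ER3 arrays and 5.79 to 6.10 (median 5.99) in T15-2 arrays, against 9.36 to 9.75 (median 9.45) in HCC827, and its neighbour IRX5 had 4.57 to 4.97 (median 4.71) in ER3 arrays and 4.42 to 5.11 (median 4.72) in T15-2 arrays, against 8.07 to 8.75 (median 8.41) in HCC827. IRX3 differed by -3.26 ± 0.06 (adjusted p = 5.74e-19). IRX5, above background on 3 of 12 subline arrays, was at least 12.5-fold lower in the sublines on its brightest probe (adjusted p = 1.34e-17). The other probe of IRX5 differed by -3.29. SOX2, a transcription factor of stem cells and airway epithelium, had levels of 4.60 to 4.86 (median 4.70) in ER3 arrays and 4.53 to 4.92 (median 4.68) in T15-2 arrays, against 6.94 to 8.16 (median 7.61) in HCC827, and was at least 6.77-fold lower (adjusted p = 2.96e-18). In HCC827 alone SOX2 was 8.16, 8.02 and 8.10 with erlotinib and 7.20, 7.17 and 6.94 with DMSO. The zinc finger gene ZNF22 had levels of 4.48 to 4.72 (median 4.67) in ER3 arrays and 4.49 to 4.74 (median 4.63) in T15-2 arrays, against 7.53 to 7.79 (median 7.70) in HCC827. It was above background on 0 of 12 subline arrays.

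Signalling genes were among the falls as well. VAV3, a guanine nucleotide exchange factor, had 8.89, 8.74 and 9.04 in HCC827 with erlotinib and 7.36, 7.43 and 7.41 with DMSO, while all 12 subline arrays lay between 4.43 and 4.71, at background. The tyrosine kinase SYK had levels of 4.59 to 4.78 (median 4.66) in ER3 arrays and 4.55 to 4.81 (median 4.60) in T15-2 arrays, against 6.84 to 7.06 (median 6.88) in HCC827, and was at least 4.12-fold lower in the sublines (adjusted p = 9.36e-18). LRCH2 was at least 7.55-fold lower and MOB3B at least 4.83-fold, both above background on 0 of 12 subline arrays. VTCN1, an inhibitory ligand of the B7 family, was at least 8.27-fold lower over the sublines. It was above background on 5 of 6 ER3 and 0 of 6 T15-2 arrays. The calcium-binding protein S100P was at least 4.91-fold lower over the sublines, and above background on 6 of 6 ER3 and 0 of 6 T15-2 arrays. PGM5, related to phosphoglucomutase, was at least 13.5-fold lower on its brightest probe. The probes of PGM5 differed by -3.98, -3.84, -2.75 and -0.63. PGM5 was above background on 0 of 6 ER3 arrays and 5 of 6 T15-2 arrays. ADGRG2, an adhesion receptor, fell further in ER3 than in T15-2, with levels of 4.64 to 5.04 (median 4.87) in ER3 arrays and 6.06 to 6.45 (median 6.12) in T15-2 arrays, against 8.38 to 8.77 (median 8.57) in HCC827.

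Loss of detectable signal was counted apart from the test. In 29 genes 0 of 12 subline arrays and all 6 HCC827 arrays showed signal above background. These genes were picked for that pattern, which fixes their direction. They included VCAN, VAV3, SYK, CEACAM5, the airway protease gene TMPRSS2, the desmosomal cadherin DSC3, the matrix protease MMP10 and SERPINF1, which encodes the secreted factor PEDF. The converse, all 12 subline arrays above background and no HCC827 array, held for 1 gene, KLRC2. By comparison 5 genes were lost in ER3 but present on every T15-2 array, and 10 were lost in T15-2 but present on every ER3 array. Gain in 1 subline without the other was seen for 5 genes in ER3 and 3 in T15-2, and 8936 genes were above background on all 18 arrays.

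Interferon-stimulated genes were lower as a group. Of 33 measured, 29 were lower members and 0 were higher, against 17.4% and 15.9% of all genes. Of the lower ones 23 passed in each of the 4 comparisons, against 5.4% of all genes. The median shared difference of the list was -1.27, against 0.01 over all genes. The fall was deeper in T15-2: 29 of 33 were lower in T15-2 than in ER3 by the test of that difference, which called 20.6% of all genes in this direction. OAS2, an antiviral enzyme that makes oligoadenylates, had levels of 9.86 to 10.37 (median 10.18) in ER3 arrays and 7.93 to 8.11 (median 8.03) in T15-2 arrays, against 12.08 to 12.24 (median 12.15) in HCC827. Its shared difference was -3.07 ± 0.06 (adjusted p = 9.30e-19), and the T15-2 minus ER3 difference was -2.13 ± 0.07 (adjusted p = 7.17e-15). OAS1, of the same family, had levels of 7.60 to 8.01 (median 7.89) in ER3 arrays and 5.21 to 5.85 (median 5.57) in T15-2 arrays, against 9.57 to 9.86 (median 9.61) in HCC827.

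IFI27 had levels of 10.72 to 11.53 (median 11.45) in ER3 arrays and 9.47 to 9.71 (median 9.62) in T15-2 arrays, against 13.56 to 13.98 (median 13.84) in HCC827, and a shared difference of -3.35 ± 0.09 (adjusted p = 1.22e-16). MX1, an antiviral GTPase, had levels of 12.24 to 12.85 (median 12.39) in ER3 arrays and 10.44 to 10.85 (median 10.59) in T15-2 arrays, against 13.84 to 14.21 (median 13.98) in HCC827, with differences from HCC827 of -1.26 and -3.15 in erlotinib and -1.82 and -3.61 in DMSO for ER3 and T15-2 in that order. The ranges of ER3, T15-2 and HCC827 did not overlap for OAS1, OAS2, IFI27 or MX1, with HCC827 highest and T15-2 lowest. The transcription factors IRF9 (-1.59), itself 1 of the listed genes, and IRF7 (-1.48, its other probes between -1.42 and -0.05) were also lower. So were ISG15 (-1.26), a ubiquitin-like modifier, and IFI6 (-1.40). The part of IRF9 and IRF7 in the other differences was not tested. SAMD9L, RSAD2 and IFI44 passed the shared test but were not members, since their differences were above 0 in ER3 with erlotinib, and IFIT2 did not pass (-0.02). The IFITM genes are near-identical copies, so their separate values (-1.47 for IFITM1, -0.50 for IFITM2 and -0.50 for IFITM3) are uncertain.

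The promoters of 4 of these genes, from 250 bases before the transcription start to 50 after it, are shown because they hold the response element. Sequences are from RefSeq, assembly GRCh38.p14, 5′ to 3′ on the gene's strand, with each match to the ISRE core, a pair of GAAA copies parted by 2 bases of any kind, on either strand in capitals.
IFI27, chr14:94110486-94110785, plus strand: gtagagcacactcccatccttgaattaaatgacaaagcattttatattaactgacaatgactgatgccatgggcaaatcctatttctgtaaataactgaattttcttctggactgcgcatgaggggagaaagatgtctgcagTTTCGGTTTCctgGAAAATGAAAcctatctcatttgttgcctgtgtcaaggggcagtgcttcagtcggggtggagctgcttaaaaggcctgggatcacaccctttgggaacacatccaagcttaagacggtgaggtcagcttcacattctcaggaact
IFI6, chr1:27672143-27672442, minus strand: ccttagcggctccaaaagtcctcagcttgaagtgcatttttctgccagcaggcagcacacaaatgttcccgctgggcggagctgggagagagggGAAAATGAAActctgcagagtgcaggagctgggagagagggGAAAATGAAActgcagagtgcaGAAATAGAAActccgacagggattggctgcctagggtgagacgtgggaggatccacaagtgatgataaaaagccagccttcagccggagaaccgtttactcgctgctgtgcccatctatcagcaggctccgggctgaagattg
ISG15, chr1:1013247-1013546, plus strand: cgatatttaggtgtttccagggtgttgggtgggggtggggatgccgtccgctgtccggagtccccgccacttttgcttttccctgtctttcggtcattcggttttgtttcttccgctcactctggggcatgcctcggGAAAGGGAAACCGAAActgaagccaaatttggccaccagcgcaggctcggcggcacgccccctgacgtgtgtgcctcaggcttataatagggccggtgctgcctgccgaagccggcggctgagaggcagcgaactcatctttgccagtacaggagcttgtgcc
MX1, chr21:41420308-41420607, plus strand: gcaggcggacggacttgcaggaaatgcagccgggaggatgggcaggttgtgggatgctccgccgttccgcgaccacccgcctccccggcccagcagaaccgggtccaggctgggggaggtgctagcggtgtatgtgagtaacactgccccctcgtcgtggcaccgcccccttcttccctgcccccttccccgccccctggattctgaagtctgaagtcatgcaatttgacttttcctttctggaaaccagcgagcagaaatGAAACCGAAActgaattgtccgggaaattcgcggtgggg

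IFI6 holds 3 matches, IFI27 and ISG15 hold 2 each, and MX1 holds 1; matches that overlap appear as 1 run of capitals. Promoters were at hand for 27 of the interferon-stimulated genes, and 18 of these (66.7%) held a match, against 274 of 9597 promoters of all tested genes with one (2.86%). Among the 24 that were lower members, 17 (70.8%) held a match. OAS1, IRF9 and XAF1 were lower members without these letters in the window. The motif was chosen after the list's counts were known, and a match describes the sequence, not binding.

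**Figure D3:**
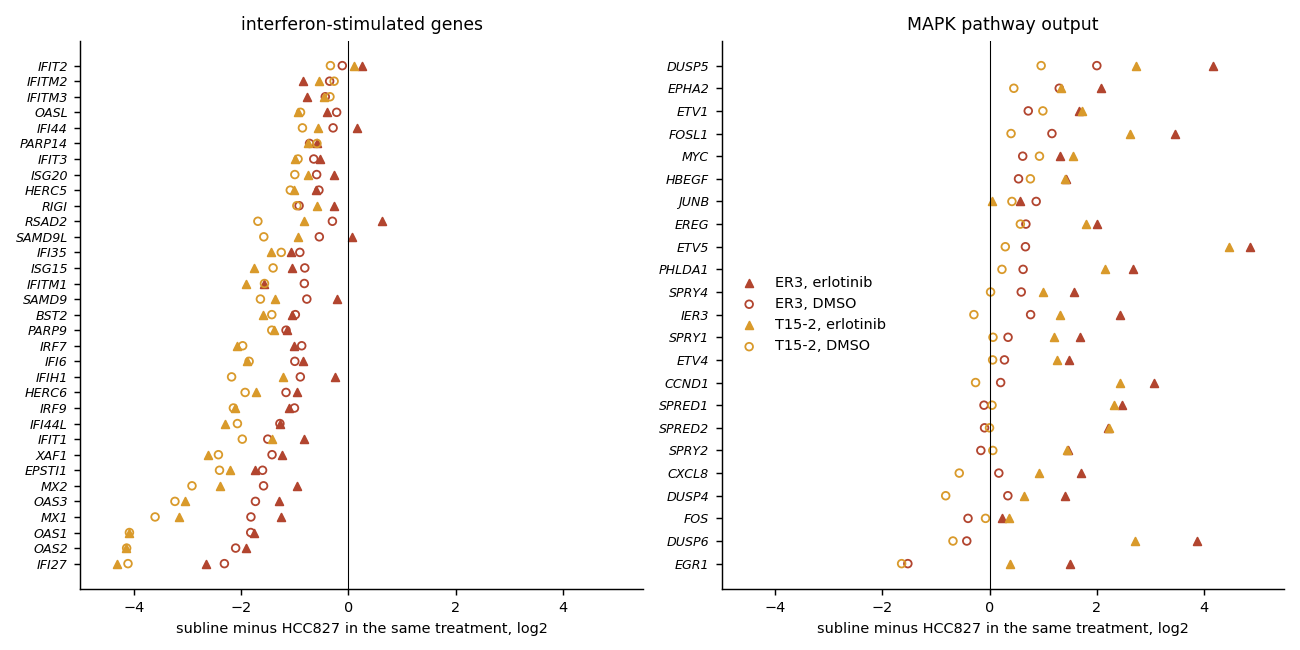
Differences from HCC827 in the same treatment (log2) for the 33 measured interferon-stimulated genes on the left and the 23 measured genes of MAPK pathway output on the right, for ER3 and T15-2 with erlotinib (triangles) and DMSO (circles). Nearly all interferon-stimulated genes lie left of 0 in both treatments with T15-2 further left, while the MAPK genes lie further right with erlotinib than with DMSO.

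Genes of alveolar and surfactant-producing epithelium were lower in both sublines. Of 13 measured lung alveolar genes, 11 were lower members and 2 were higher, against 17.4% and 15.9% of all genes, with a median of -1.02. HOPX, a marker of alveolar type I cells, had levels of 6.55 to 7.01 (median 6.85) in ER3 arrays and 4.64 to 5.24 (median 5.06) in T15-2 arrays, against 7.55 to 8.74 (median 8.35) in HCC827 and a shared difference of -2.32 ± 0.09 (adjusted p = 1.98e-14). SFTPB, which encodes surfactant protein B, had levels of 4.68 to 5.26 (median 5.13) in ER3 arrays and 4.69 to 5.01 (median 4.80) in T15-2 arrays, against 6.74 to 7.63 (median 7.10) in HCC827, and NAPSA, the protease that processes it, had 9.08 to 9.31 (median 9.23) in ER3 arrays and 8.57 to 8.85 (median 8.63) in T15-2 arrays, against 10.33 to 10.85 (median 10.52) in HCC827. LAMP3, a lysosomal protein of type II cells, was above background on 6 of 6 ER3 arrays and 0 of 6 T15-2 arrays. It was at least 4.66-fold lower over the sublines on its brightest probe, and its other probe differed by -0.82. The pioneer factor FOXA1 differed by -1.16. Its relative FOXA2 went the other way, with levels of 8.33 to 8.82 (median 8.58) in ER3 arrays and 7.10 to 7.32 (median 7.21) in T15-2 arrays, against 5.37 to 7.00 (median 6.17) in HCC827 and a shared difference of 1.72 ± 0.05 (adjusted p = 1.18e-15). The other higher member was CAV1, a caveolar coat protein of type I cells, at 0.22.

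Carcinoembryonic antigen adhesion molecules and mucins followed the same direction, with 8 of 9 measured genes lower, 1 higher and a median of -0.97. Of all genes, 17.4% were lower members and 15.9% higher. CEACAM6 had levels of 10.37 to 10.89 (median 10.64) in ER3 arrays and 8.46 to 8.78 (median 8.68) in T15-2 arrays, against 12.38 to 12.77 (median 12.66) in HCC827, a shared difference of -2.99 ± 0.06 (adjusted p = 1.25e-18), and a T15-2 minus ER3 difference of -1.99 ± 0.07 (adjusted p = 1.68e-14). CEACAM5 was above background on 0 of 12 subline arrays and was at least 2.75-fold lower. The membrane mucin MUC4 differed by -1.25 ± 0.13 on its brightest probe and by -0.12, which did not pass, on the other. CEACAM1 differed by -1.38 ± 0.06, and its other probes by -0.92 and, without passing, 0.06. MUC13 was the higher member (0.72).

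Most of the measured mesenchymal markers rose, while the epithelial programme fell mostly in T15-2. Of 14 measured mesenchymal markers, 9 were higher members and 1 was lower, against 15.9% and 17.4% of all genes, with a median of 0.35. CDH2, the mesenchymal cadherin N-cadherin, had levels of 10.54 to 10.74 (median 10.65) in ER3 arrays and 10.15 to 10.60 (median 10.44) in T15-2 arrays, against 9.14 to 9.56 (median 9.38) in HCC827 and a shared difference of 1.16 ± 0.05 (adjusted p = 3.45e-13). VIM, the intermediate filament vimentin, had levels of 12.89 to 13.27 (median 12.97) in ER3 arrays and 13.09 to 13.36 (median 13.20) in T15-2 arrays, against 12.31 to 12.66 (median 12.47) in HCC827 and differed by 0.63 ± 0.05 (adjusted p = 8.08e-09). The transcription factor SNAI2, a repressor of epithelial genes, differed by 0.84 ± 0.08 and had a T15-2 minus ER3 difference of -0.71 ± 0.09 (adjusted p = 1.76e-06). ZEB1, another such repressor, differed by 0.37 ± 0.08 (adjusted p = 7.13e-04), and the collagen COL6A1 by 0.76 ± 0.08. The matrix genes VCAN and COL1A1 went the other way, at least 14.3-fold and 1.19-fold lower, above background on 0 of 12 subline arrays. The probes of S100A4 differed by -0.92 and -0.76, the latter with 1 sign in all 4 comparisons.

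Of 30 measured epithelial markers, 11 were lower members and 1 was higher, against 17.4% and 15.9% of all genes. A further 12 of the 30 passed the shared test without 1 sign in all 4 comparisons, against 1911 of all 11820 genes. In 22 of the 30, T15-2 was lower than ER3 by the test of that difference, and in 0 it was higher. This test called 20.6% of all genes lower in T15-2 and 24.9% higher. CDH1, the epithelial cadherin E-cadherin, had levels of 11.26 to 11.64 (median 11.47) in ER3 arrays and 9.71 to 10.10 (median 9.90) in T15-2 arrays, against 11.61 to 11.77 (median 11.70) in HCC827. For ER3 and T15-2 in that order, it differed by -0.22 and -1.66 in erlotinib and -0.25 and -1.92 in DMSO. RAB25, a trafficking GTPase of epithelia, had levels of 5.89 to 6.43 (median 6.22) in ER3 arrays and 4.86 to 5.32 (median 4.97) in T15-2 arrays, against 7.17 to 7.71 (median 7.35) in HCC827, and the epithelial transcription factor EHF was at least 2.83-fold lower over the sublines. The channel SCNN1A and the proteases PRSS8 and ST14 were members by sign, but most of their difference lay in T15-2. PRSS8 had levels of 8.24 to 8.80 (median 8.58) in ER3 arrays and 6.07 to 6.59 (median 6.31) in T15-2 arrays, against 8.29 to 8.88 (median 8.70) in HCC827.

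Glycolytic and hypoxia-responsive genes were higher in both sublines. Of 26 measured, 19 were higher members and 1 was lower (EGLN3, the oxygen-sensing hydroxylase PHD3), against 15.9% and 17.4% of all genes. Of the higher ones 12 passed in each of the 4 comparisons, against 3.82% of all genes. The median of the list was 0.38. The glucose transporter SLC2A3 (GLUT3) had levels of 9.16 to 9.46 (median 9.30) in ER3 arrays and 7.26 to 7.94 (median 7.68) in T15-2 arrays, against 5.41 to 6.42 (median 5.82) in HCC827 and a shared difference of 2.61 ± 0.06 (adjusted p = 1.36e-17). SLC2A1 (GLUT1) differed by 1.05 ± 0.05, the angiogenic factor VEGFA by 1.48 ± 0.07 and the aldolase ALDOC by 1.10 ± 0.07. VEGFA had levels of 8.65 to 8.93 (median 8.72) in ER3 arrays and 6.98 to 7.57 (median 7.29) in T15-2 arrays, against 5.95 to 6.97 (median 6.55) in HCC827, so that ER3 stood further from HCC827 than T15-2 did (T15-2 minus ER3 -1.50 ± 0.08, adjusted p = 7.38e-12). Enzymes of the pathway moved less, such as PGK1 (0.62), PFKP (0.61), PKM (0.54) and HK1 (0.37). LDHA passed the shared test (0.48) but was not a member, since its difference was below 0 in both sublines with DMSO.

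Among lipid synthesis genes, 7 of 13 measured fatty acid genes were lower members and 1 was higher, and of 17 genes of cholesterol synthesis and uptake 6 were lower and 0 higher, against 17.4% and 15.9% of all genes. The median difference of the fatty acid genes was -0.10 in erlotinib and -0.47 in DMSO, and that of the cholesterol genes was -0.05 in erlotinib and -0.27 in DMSO. ACSL1, which activates long-chain fatty acids, had levels of 4.69 to 5.49 (median 4.78) in ER3 arrays and 6.00 to 6.42 (median 6.22) in T15-2 arrays, against 7.55 to 7.84 (median 7.67) in HCC827 and a shared difference of -2.11 ± 0.10 (adjusted p = 3.62e-13). The regulator SREBF1 differed by -0.58, the desaturase SCD by -0.50, and fatty acid synthase FASN by -0.45. Of 18 antigen presentation genes 7 were lower members (17.4% of all genes) and 0 higher (15.9%). Another 4 passed the shared test without 1 sign in all 4 comparisons, against 1911 of all 11820 genes. In DMSO, 6 of the 18 were higher and 5 lower in ER3, against 16% and 19% of all genes. Over both treatments 12 were lower in T15-2 than in ER3, against 20.6% of all genes. Members included HLA-B at -1.09 ± 0.06 and the peptide transporter TAP1 at -0.79 ± 0.06. HLA class I genes are alike in sequence, and their separate values are uncertain.

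The transcriptional output of the MAPK pathway differed from HCC827 mainly in the erlotinib groups. Of 23 measured genes, 13 were higher members and 0 lower, against 15.9% and 17.4% of all genes, with a median of 1.09 over the shared contrast. The median was 1.70 for the sublines minus HCC827 in erlotinib and 0.24 in DMSO. The difference in erlotinib exceeded that in DMSO by the test of this dependence in 22 of 23 genes, against 12.3% of all genes tested in this direction and 23.3% in either. Scaling by the median of all probes raised the number of all genes called in this direction to 3135, against 1448. ETV5, a transcription factor induced by ERK, had 9.59, 10.03 and 9.72 in ER3 and 9.32, 9.40 and 9.44 in T15-2 with erlotinib, against 4.83, 5.11 and 4.81 in HCC827. With DMSO it had 9.92, 9.73 and 10.05 in ER3 and 9.45, 9.52 and 9.60 in T15-2, against 9.21, 9.27 and 9.20 in HCC827. In HCC827 with erlotinib ETV5 was near background, with 1 of 3 arrays above it, while both sublines were close to their DMSO levels (dependence 4.18 ± 0.14, adjusted p = 1.66e-13).

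DUSP5, a phosphatase that holds ERK in the nucleus, was higher in both treatments. With erlotinib it had 10.75, 10.77 and 10.64 in ER3 and 9.22, 9.22 and 9.41 in T15-2, against 6.65, 6.70 and 6.29 in HCC827. With DMSO it had 10.68, 10.52 and 10.67 in ER3 and 9.64, 9.38 and 9.73 in T15-2, against 8.50, 8.51 and 8.85 in HCC827. The AP-1 subunit FOSL1 showed the same order, with a shared difference of 1.91 ± 0.08 and a dependence of 2.26 ± 0.16 (adjusted p = 5.91e-09). DUSP6, the cytoplasmic ERK phosphatase, and CCND1, the G1 cyclin, passed the shared test but were not members. With erlotinib DUSP6 was above background on 0 of 3 HCC827 arrays, and was at least 10.7-fold higher in ER3 and 4.82-fold higher in T15-2. With DMSO it differed by -0.43 and -0.68, for ER3 and T15-2 in that order. CCND1 differed by 3.07 and 2.44 in erlotinib and 0.21 and -0.26 in DMSO, in the same order.

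Ligands of EGFR family receptors shifted in both directions, with 3 of 5 measured genes higher and 2 lower (15.9% and 17.4% of all genes). BTC (betacellulin) had levels of 7.15 to 7.79 (median 7.53) in ER3 arrays and 7.39 to 7.75 (median 7.60) in T15-2 arrays, against 6.50 to 6.87 (median 6.64) in HCC827 and a shared difference of 0.88 ± 0.07 (adjusted p = 5.58e-09), with no dependence on the drug that passed the test. HBEGF had levels of 7.10 to 7.96 (median 7.58) in ER3 arrays and 7.36 to 7.93 (median 7.66) in T15-2 arrays, against 6.40 to 6.80 (median 6.56) in HCC827 and differed by 1.03 ± 0.05 (adjusted p = 3.44e-12). EREG (epiregulin) differed by 1.26 ± 0.09, and by 1.27 ± 0.19 more in erlotinib than in DMSO (adjusted p = 7.50e-05). TGFA was lower, with a difference of -0.82 ± 0.07 (adjusted p = 1.76e-08), and so was NRG1 (-0.43).

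Among the receptor kinases, ERBB2 was a lower member in each of the 4 comparisons, with levels of 8.02 to 8.73 (median 8.34) in ER3 arrays and 7.99 to 8.45 (median 8.15) in T15-2 arrays, against 8.82 to 9.52 (median 9.21) in HCC827 and a shared difference of -0.91 ± 0.10 (adjusted p = 1.65e-07). EGFR itself had levels of 12.70 to 13.13 (median 12.95) in ER3 arrays and 12.12 to 12.68 (median 12.29) in T15-2 arrays, against 12.52 to 12.81 (median 12.74) in HCC827, and its shared difference of -0.05 ± 0.07 did not pass (adjusted p = 0.563). Of its 3 other probes, 1 was lower with 1 sign in all 4 comparisons (-0.27, adjusted p = 0.00278 over all probes), and the others, at 0.12 and 0.13, did not pass. MET was a member through the erlotinib groups. With the drug it had 8.44, 8.06 and 8.61 in ER3 and 8.53, 8.58 and 7.92 in T15-2, against 6.24, 6.02 and 5.55 in HCC827. With DMSO it had 7.20, 8.23 and 7.76 in ER3 and 8.01, 8.12 and 7.80 in T15-2, against 7.88, 7.52 and 7.54 in HCC827, and neither DMSO difference passed (adjusted p = 0.817 and 0.299). AXL was no member: it had levels of 9.99 to 10.84 (median 10.41) in ER3 arrays and 6.28 to 7.20 (median 6.98) in T15-2 arrays, against 7.09 to 7.40 (median 7.18) in HCC827, so ER3 alone stood above HCC827. GAS6, the ligand of AXL, was shared, with levels of 7.90 to 8.18 (median 8.02) in ER3 arrays and 7.59 to 7.70 (median 7.69) in T15-2 arrays, against 6.78 to 7.15 (median 6.96) in HCC827 and a difference of 0.88 ± 0.05 (adjusted p = 1.53e-11), and 0.93 and 0.21 on its other probes. ERBB3 had a T15-2 minus ER3 difference of -1.97 ± 0.09 (adjusted p = 2.11e-12) and had no single sign on its brightest probe, while 1 of its 2 other probes had (-0.43). BCL2L11, the proapoptotic protein BIM, had a shared difference of 0.03 ± 0.09 (adjusted p = 0.806), while its other probe was lower with 1 sign in all 4 comparisons (-0.24, adjusted p = 0.00592 over all probes).

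**Figure D4:**
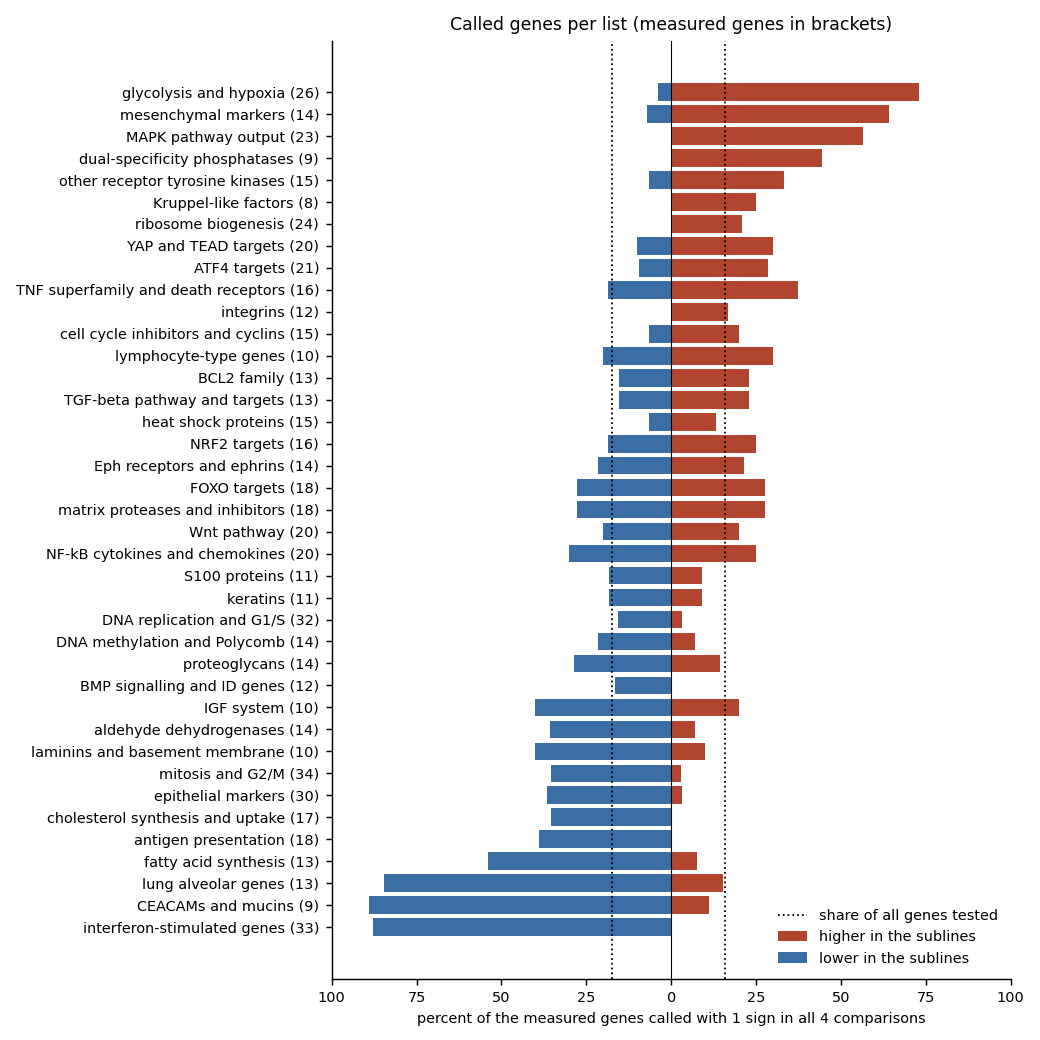
Share of the measured genes of each list (number in brackets) that were higher members (red, to the right) or lower members (blue, to the left), for lists with at least 8 measured genes, with dotted lines at the share of all genes tested. Glycolysis and hypoxia stand at the top with 19 of 26 genes higher, and interferon-stimulated genes at the bottom with 29 of 33 lower.

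Differences of the members between the sublines and between the treatments were tested directly. The T15-2 minus ER3 difference, in which no HCC827 array enters, passed for 5377 genes (45.5% of those tested, 24.9% positive and 20.6% negative). Among the 1878 higher members it was positive for 409 and negative for 451, and among the 2060 lower members it was positive for 443 and negative for 431. The dependence on erlotinib passed for 2754 genes (23.3%, with 12.3% positive and 11% negative). Scaled by the median of all probes, it was positive for 3135 and negative for 223 genes, against 1448 and 1306 in the main analysis. It was positive for 328 and negative for 55 of the higher members, and negative for 372 and positive for 85 of the lower ones. Neither test passed for 822 higher and 955 lower members, and of those that passed in each of the 4 comparisons 194 higher and 247 lower genes showed neither difference. ABCB1, SYK and ZNF22 were among these. SYK and ZNF22 were above background on 0 of 12 subline arrays, so the test between the sublines could not compare their levels.

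Where sublines differed, a shared sign covered levels far apart. LUM, the matrix proteoglycan lumican, had levels of 9.30 to 9.77 (median 9.36) in ER3 arrays and 5.52 to 5.87 (median 5.71) in T15-2 arrays, against 4.95 to 5.54 (median 5.29) in HCC827. On this probe ER3 was well above both other lines and T15-2 only slightly above HCC827. The other probe of LUM differed from HCC827 by 0.48 in ER3 and 0.05 in T15-2. SRPX, a sushi-repeat protein, was at 4.80 to 5.25 (median 4.87) in ER3 arrays and 6.78 to 7.01 (median 6.87) in T15-2 arrays, against 4.66 to 4.99 (median 4.86) in HCC827. PKIA, an inhibitor of protein kinase A, had levels of 5.11 to 5.43 (median 5.31) in ER3 arrays and 7.03 to 7.88 (median 7.56) in T15-2 arrays, against 7.66 to 8.39 (median 8.17) in HCC827, with ER3 lowest. TSPAN8, a tetraspanin, had 4.72 to 5.24 (median 5.20) in ER3 arrays and 6.87 to 7.47 (median 7.15) in T15-2 arrays, against 7.84 to 8.65 (median 8.24) in HCC827. IGFBP2, which binds insulin-like growth factors, was above background on 1 of 6 ER3 arrays and on all 6 T15-2 arrays, with levels of 4.52 to 4.95 (median 4.75) in ER3 arrays and 6.05 to 6.69 (median 6.25) in T15-2 arrays, against 7.62 to 8.20 (median 7.86) in HCC827. Of 10 measured genes of the IGF system, 2 were higher and 4 lower members, against 15.9% and 17.4% of all genes.

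Members were spread unevenly over the chromosomes, which were assigned to genes from the RefSeq table of GRCh38.p14. On chromosome 7, 258 of 555 tested genes were higher (46.5%) and 42 lower (7.57%), against 15.9% and 17.4% over all chromosomes. The median difference over chromosome 7 genes was 0.24 in erlotinib and 0.18 in DMSO for ER3, and 0.28 and 0.28 for T15-2. In the 11 windows of 50 neighbouring tested genes along it, between 8 and 39 genes were higher. The window from AP1S1 to MDFIC held the most, with 39 higher and 0 lower and a median of 0.50, and the window from DDX56 to RABGEF1, which holds EGFR, held 8 higher and 7 lower. Unbroken runs of higher members among neighbouring tested genes included 9 from PNPLA8 to MDFIC, 7 from DMTF1 to SLC25A40 with ABCB4 and ABCB1, 6 from TRIM56 to ZNHIT1 with VGF, and 4 from MET to LSM8. Under scaling by the median of all probes, 30.5% of chromosome 7 genes were higher, against 7.56% of all genes.

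Chromosome 14 showed the opposite. Of 382 genes there, 142 were lower (37.2%) and 12 higher (3.14%), with medians of -0.19 in erlotinib and -0.21 in DMSO for ER3, and -0.13 and -0.13 for T15-2. Each of its 8 windows held between 14 and 23 lower genes. A run of 7 lower members from FITM1 to REC8 held the interferon-stimulated IRF9 and the proteasome activators PSME1, whose other probe differed by 0.39, and PSME2. Chromosome 6 had 25.9% of 640 genes higher and 6.72% lower, with an ER3 median of 0.25 in erlotinib and 0.28 in DMSO and T15-2 medians of 0.00. On chromosome 1, 23.9% of 1193 genes were higher and 10.5% lower. Chromosome 21 had 26.4% of 125 genes lower and 8% higher, among them a run of 5 lower members from MX2 to C2CD2 with MX1. Its medians were -0.22 in erlotinib and -0.27 in DMSO for T15-2, and -0.005 and -0.02 for ER3. DNA copy number was not measured, and its part in these differences was not tested.

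**Figure D5:**
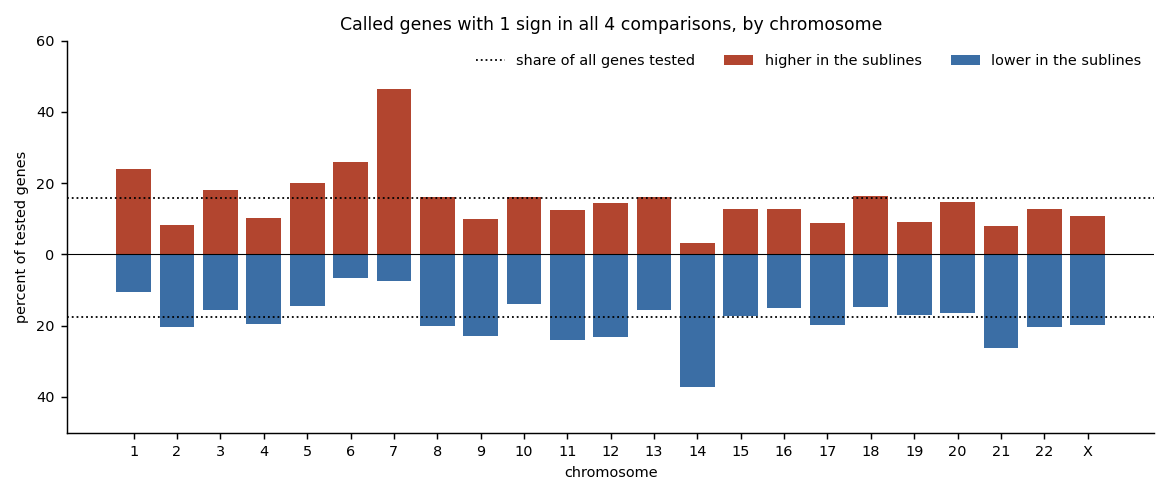
Percent of tested genes per chromosome that were higher members (red, upward) and lower members (blue, downward), with dotted lines at the shares over all genes, 15.9% and 17.4%. Chromosome 7 stands out upward at 46.5% and chromosome 14 downward at 37.2%.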

How the data were processed

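Biotin-labelled RNA of 18 samples in 6 groups of 3 was measured on Illumina BeadChips. The deposited table holds, as deposited by the authors, a bead signal for each probe (an intensity on a linear scale, not normalized) and a detection p-value; BeadStudio is a tool listed, per the submitters' processing notes (role and version not given in the sources used here). The authors also deposited processed intensity values on a linear scale, with the same rank order of probes on each array.

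Signals were background-corrected, quantile-normalized and put on the log2 scale by limma's neqc (limma 3.58.1, R 4.3.3, offset 16). The 19931 probes kept had detection p-values under 0.05 on 3 or more arrays. The platform annotation gave the gene names, with symbols brought up to date by matching gene identifiers to RefSeq (GRCh38.p14), and each gene was read from its brightest probe. One limma model with 6 group means was fitted, contrasts were tested with eBayes, and p-values were Benjamini-Hochberg adjusted over 11820 genes. The dependence on erlotinib is the sublines minus HCC827 in erlotinib minus the same in DMSO. Where a gene was not above background on any array of a dim group, the fold is a bound, taken against the higher of its own value and the lowest detected value per array. No depth exists for arrays; their number limits the precision.

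The members, the 44 gene lists and the tests were chosen with earlier results of these data known. Named genes were the 16 largest rises and 16 largest falls without overlap between sublines and HCC827, ranked by the smallest of the 4 differences, up to 4 genes of each list, the 6 most different in each direction between the sublines and between treatments, and 17 fixed genes. List genes were also used as examples after their values were seen. On simulated arrays with 200 changed genes among 11820, the shared contrast recovered 100% of changes of 1.5-fold or more and 56% at 1.25-fold, and 7.29% of calls were false. Replicate numbers did not pair the samples: of 45 same-number pairs 7 correlated above 0.1 (-0.40 to 0.27). Alternatives were other background corrections and scalings, the authors' values, other probe filters, the mean of a gene's probes, other eBayes settings, a replicate block, a 2-fold minimum and each array left out. Arrays could not be blocked by BeadChip, because the chip of each array is not known from the sources used.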

Additional observations from a re-analysis of the deposited data

Results flagged for a closer look

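Among the 3938 members, 840 had a shared difference that depended on erlotinib by the test of that dependence. By the test of the difference between T15-2 and ER3, 1734 members differed. Of all 11820 genes, 2754 (23.3%) passed the test of dependence and 5377 (45.5%) the test between the sublines, so neither count sets the members apart. In both sets of members a single sign covers unequal sizes.

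The difference in erlotinib exceeded that in DMSO by 4.18 for ETV5, 2.26 for FOSL1 and 2.22 for MET. For ISM1, a secreted protein, the fitted value was 2.29, and at least 2.16 since no HCC827 array with erlotinib was above background. TENT5C, a noncanonical poly(A) polymerase, and ADGRF5, an adhesion receptor that regulates surfactant, were lower members whose fall was smaller in erlotinib than in DMSO, with dependences of 2.31 and 2.12. Falls were larger in erlotinib for CHIA, an acidic chitinase (-2.42), RGCC, a regulator of the cell cycle (-2.03), MMP10 (-1.90), the phospholipase PLA2G10 (-1.84), PIK3IP1, an inhibitor of PI3K (-1.70), and the calpain CAPN9 (-1.60). All 12 of these values passed the test (limma, Benjamini-Hochberg). MMP10 and CAPN9 were above background on 0 of 12 subline arrays, so their values follow the HCC827 levels over background. TENT5C was above background on 4 of 12 and CHIA on 8 of 12 subline arrays, and their values are fitted, not bounds.

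T15-2 lay below ER3 by the test of the difference for LUM (-3.73 on its brightest probe), OAS1 (-2.30) and OAS2 (-2.13). The same held for the sodium channel subunit SCNN1A (-2.20) and the membrane proteases PRSS8 (-2.20) and ST14 (-2.02). It lay above ER3 for PKIA (2.24), the adhesion protein FLRT3 (2.19), the mTORC1 inhibitor DDIT4L (2.11), TSPAN8 (2.09), SRPX (1.93) and the matrix protein FBLN1 (1.80 on its brightest probe). Of the other 2 probes of FBLN1, 1 passed the shared test (-0.37) without 1 sign in all 4 comparisons. It differed from HCC827 by -0.79 in ER3 and 0.04 in T15-2. The last probe of FBLN1 did not pass (0.04).

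Probes that carry no single gene symbol entered none of the comparisons. Of 4172 such probes above background, 437 were higher and 372 were lower in the sublines by the rule used for genes.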

How the results depend on the processing

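Of the 3938 members, 3875 were called in the same direction with a replicate block (3896 in all), 3877 without background correction and 3876 with the authors' values; 2 were called in the opposite direction with the mean of a gene's probes. The numbers of the labels share no known batch, and the replicate block changed no count by over 1.5 times. Scaling by the median of all probes kept 2619 of the members and changed these counts: 894 higher members (1878 in the main analysis), 702 genes called in each of the 4 comparisons (1089), 113 of them higher (451), 1382 genes lower in T15-2 than in ER3 (2431), 3135 with a positive and 223 with a negative dependence on erlotinib (1448 and 1306), and 1469 called within each treatment (2237). Scaling by the median of the probes above background on all arrays, added after seeing the data, gave 1961 higher and 1791 lower members (52.3% higher). The cause was not tested. A 2-fold minimum left 327 members; 2-fold members numbered 46 higher and 137 lower without background correction and 46 and 138 with the authors' values (87 and 240). Leaving out 1 array gave 3702 to 3972 members, 920 to 1107 called in each comparison, 4962 to 5345 with a subline difference and 2056 to 3230 with a dependence on erlotinib. Under median scaling, 29 of 33 interferon-stimulated, 10 of 13 alveolar and 15 of 30 epithelial genes were lower, against 18.5% of all genes. Higher were 18 of 26 glycolysis, 10 of 23 MAPK and 7 of 14 mesenchymal genes, against 7.56% of all genes. Higher ATF4 targets numbered 3 of 21 (6 in the main analysis) and other receptor kinases 2 of 15 (5), where 15.9% of all genes were higher in the main analysis. Of the named genes, 180 were members, against 158 under median scaling, 170 under the added scaling, 169 with the stricter detection filter and 176 to 180 otherwise. The shared test alone, without the sign rule, kept its side of the threshold in 5013 repeats of single genes and lost it in 16, for KRT18, PECAM1 and NCAM1. Probes near background limit folds to bounds.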

Other observations

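Members outside the groups described above included death receptors and stress-response genes. Of 16 measured TNF superfamily genes and death receptors, 6 were higher and 3 lower members, against 15.9% and 17.4% of all genes. The TRAIL receptor TNFRSF10A had a shared difference of 0.98, TNFRSF10B one of 0.47 and TNFRSF9, a costimulatory receptor, one of 0.84, while the ligand TNFSF10 (TRAIL) differed by -0.72. Of 18 measured FOXO targets, 5 were higher and 5 lower members, against 15.9% and 17.4% of all genes, with a median of 0.06. The stress-response gene SESN3 was at least 2.72-fold lower and TP53INP1 had a shared difference of -1.39, and the transcriptional regulators BCL6 and CITED2 were higher, with 1.05 and 1.01.

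The genes of basement membrane collagens and laminins split by member. Of 10 measured, 4 were lower (17.4% of all genes), among them COL4A1 (-0.89) and COL4A5 (-0.55), and 1 was higher (15.9% of all genes), LAMB1 (0.81), which lies on chromosome 7. Of 34 genes of mitosis and G2/M, 12 were lower members (17.4% of all genes) and 1 was higher (15.9%), with a median of -0.10.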
